A study of Drosophila melanogaster with 58 samples.

Results

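The comparison described here sets heads of flies fed pentylenetetrazole (PTZ) against heads of flies fed normal food, with 4 arrays in each group and 8 of the 58 arrays of the series in all. The arrays were chosen by their sample titles alone. All flies were adult, unmated males of Oregon R, a wild-type laboratory strain with no transgene, 10 days old and kept 30 to a vial at 25 degrees C, and the PTZ group differed from the normal food group by 7 days on food with PTZ. The dose is not given in the sources used here. Other arrays served for comparison: 40 arrays of flies fed levetiracetam, glucosamine, mannitol, olmesartan or quinapril, each with PTZ and without it, and 26 arrays of the 7 compounds given without PTZ (those 5, moxifloxacin and gemfibrozil).

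PTZ provokes seizures by blocking chloride channels of the GABA-A type, the receptors through which the transmitter GABA inhibits neurons, and repeated or chronic feeding of it is used to model epilepsy. In flies these channels are built from the Rdl subunit and its relatives. A head sample holds brain and eye, but also fat body, muscle, cuticle, haemocytes and antennae, and the fat body is a main site at which insects break down foreign compounds, mount humoral immunity and run one-carbon metabolism. In whole heads, fewer cells of a type and less RNA per cell cannot be told apart.

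Levels are the deposited log2 values, and a change is the PTZ mean minus the normal food mean on that scale, ± its standard error from limma. The threshold for a call was an adjusted p of 0.05, and rose and fell are used only of called genes. The table gave 11981 genes with a symbol of their own. Of these, 3777 (31.5%) were called higher and 3487 (29.1%) lower, with a median change of 0.01, so a call alone does not set a gene apart. Whether replicate arrays stand for different vials of flies is not given in the sources used here, so the p-values measure array-to-array spread only, part or all of which may be technical.

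Several measures of the samples moved with the 2 groups. Of 81 genes listed for the male reproductive tract, 61 were lower and 6 higher in PTZ heads, and their median level was 2.87 to 2.96 on PTZ arrays against 4.66 to 4.74 on normal food arrays, while the 13 other groups averaged 2.64 to 3.73. Their summed linear level was 13672 to 13980 on PTZ arrays and 13621 to 13852 on normal food arrays. Obp56e, Obp56g and EbpIII, bright in both groups and higher in PTZ heads, gave most of it on PTZ arrays. Without those 3 genes it was 1115 to 1152 in PTZ heads against 7413 to 7648 in normal food heads. For the controls GAPDH and eIF-4a, the 5′ minus 3′ signal was -5.78 to -5.56 on PTZ arrays against -6.73 to -6.19 on normal food arrays, and the array medians were 0.14 lower on PTZ arrays. Genes that follow the tract are therefore left out of the greatest rises and falls and of counts said to be beyond the tract. The counts and medians of gene lists keep them. A gene counts as following the tract if it is on that list or correlates at over 0.6 with its median level over the 13 other groups. With 1737 such genes left out, 3730 genes were called higher and 2186 lower, and among changes of at least 2-fold 355 genes rose and 89 fell. With them kept in, 359 rose and 315 fell at least 2-fold. The tract is high in normal food, so this rule takes out mainly falls. Genes that run against the tract, such as Prx3 (correlation -0.83) and Prat2 (-0.79), stay in. The surplus of rises among the genes left is therefore in large part made by the rule. The part of the tract signal in the remaining genes was not tested.

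Enzymes of one-carbon metabolism, which moves single carbon units between glycine, serine, folate and methionine, gave 4 of the 15 greatest rises beyond the tract, with Gnmt first. Gnmt uses S-adenosylmethionine to methylate glycine to sarcosine, and it had levels of 11.03, 11.10, 11.02 and 11.01 in PTZ heads, against 7.10, 7.03, 7.33 and 7.00 in normal food heads. Groups did not come near each other, and the change of 3.92 ± 0.06 was a 15.2-fold rise (adjusted p = 5.71e-44, limma). Sardh, the sarcosine dehydrogenase that returns sarcosine to glycine, rose with it by 1.66 ± 0.07. Levels of Sardh were 7.37, 7.46, 7.24 and 7.19 in PTZ heads and 5.67, 5.90, 5.40 and 5.65 in normal food heads, so the route of glycine out to sarcosine and back was higher at both steps. Ahcy, which clears the S-adenosylhomocysteine that methylation leaves behind, rose 7.71-fold. The next enzymes along the way to cysteine were higher as well: Cbs had a change of 1.13 ± 0.06 and Cth one of 1.33 ± 0.06. Odc1, the ornithine decarboxylase that starts polyamine synthesis, rose by 1.21 ± 0.06. Over the whole list of 15 methionine and S-adenosylmethionine cycle genes, 12 rose, 1 fell and 2 were not called, with a median change of 0.91 against the 0.01 of all genes.

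The glycine, serine and folate side moved the same way. Shmt, the hydroxymethyltransferase that interconverts serine and glycine, had levels of 9.59, 9.68, 9.58 and 9.55 in PTZ heads against 7.47, 7.53, 7.51 and 7.56 in normal food heads. That was a change of 2.08 ± 0.05, with no overlap between the groups (adjusted p = 2.16e-36, limma). Nmdmc, the mitochondrial methylenetetrahydrofolate dehydrogenase, rose by 3.23 ± 0.08, and pug, the cytosolic enzyme that carries several folate steps on 1 chain, by 1.17 ± 0.04. Members known by their identifiers only, CG3999, CG11899 and CG6287, rose by 3.78 ± 0.07, 1.99 ± 0.05 and 1.12 ± 0.05. Of the 13 genes of this list 12 rose, 0 fell and 1 was not called, with a median of 0.92.

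Folate carbons enter purines, and enzymes of de novo purine synthesis rose with the folate genes. Gart, which catalyses several steps of the pathway and takes a folate carbon, stood at 9.64, 9.69, 9.63 and 9.63 in PTZ heads and at 7.26, 7.24, 7.34 and 7.37 in normal food heads. Its change of 2.35 ± 0.04 made it the leading gene of the list. Prat2, which catalyses the first committed step, rose by 1.66 ± 0.05, and Pfas, Paics and Adsl, which act later, by 1.71 ± 0.04, 1.52 ± 0.03 and 1.04 ± 0.05. In all, 8 of 14 nucleotide synthesis genes rose, 3 fell and 3 were not called. Those that fell were r-l, the enzyme of the last steps to UMP, at -0.69 ± 0.05, and ras and bur, which lead from IMP to GMP, at -0.22 and -0.40. Both ras and bur were singled out after their values were seen, and r-l and ras follow the tract. The xanthine dehydrogenase ry, which oxidises purines towards urate, rose by 1.12 ± 0.05.

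**Figure D1:**
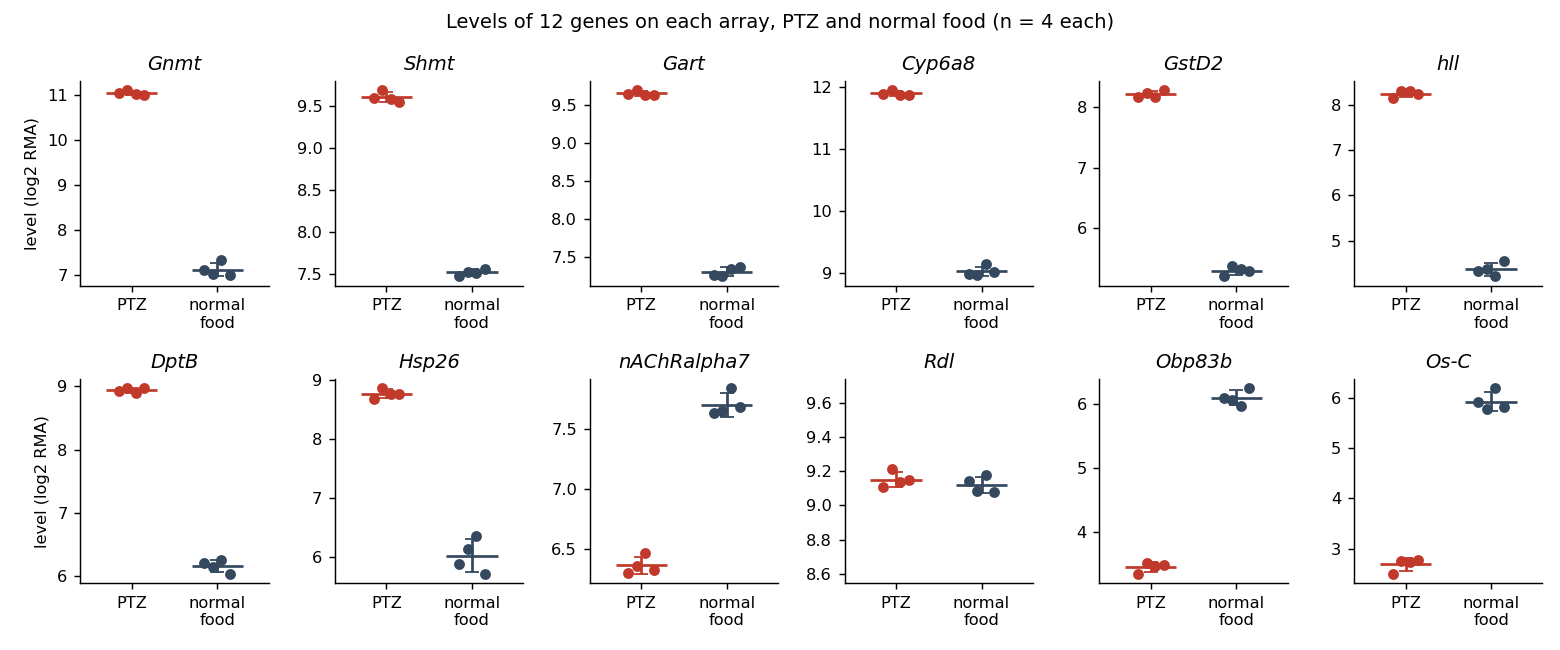
Levels (log2 RMA) of 12 genes on each of the 4 PTZ arrays (left) and 4 normal food arrays (right), with the group mean as a bar and the SD as whiskers. Groups overlap for Rdl, the GABA-A-type receptor subunit, and lie apart for the other 11 genes, from Gnmt, at 11.01 to 11.10 in PTZ heads and 7.00 to 7.33 in normal food heads, to Os-C, at 2.49 to 2.76 in PTZ heads and 5.77 to 6.19 in normal food heads.

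Among enzymes that handle foreign compounds, cytochrome P450s and glutathione S-transferases rose more often than they fell. Cyp6a8, a cytochrome P450 of a cluster linked to insecticide resistance, had levels of 11.90, 11.95, 11.88 and 11.88 in PTZ heads against 8.98, 8.97, 9.14 and 9.02 in normal food heads, a 7.32-fold rise. Cyp6w1 rose by 2.48 ± 0.04, Cyp6a2 by 2.20 ± 0.05, Cyp6d5 by 1.58 ± 0.04 and the mitochondrial P450 Cyp12d1-d by 1.58 ± 0.11. Of 83 P450 genes, 54 rose, 9 fell and 20 were not called (median 0.37). Glutathione S-transferases, which join glutathione to reactive compounds, rose in 26 of 34 cases and fell in 2 (median 0.60). GstD2 led them with 8.18, 8.25, 8.18 and 8.28 in PTZ heads and 5.20, 5.37, 5.32 and 5.28 in normal food heads, while GstD1 and GstE6, both brighter, rose by 1.37 ± 0.05 and 1.25 ± 0.04.

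The conjugating UDP-glycosyltransferases were a mixed list. Ugt35C1 rose by 1.66 ± 0.04, Ugt49C1 by 1.32 ± 0.06 and Ugt301D1 by 1.31 ± 0.07, yet only 14 of 35 genes rose, which is 40% of them against 31.5% of all genes, and the median was 0.04 (0.18 with median-centred arrays). Jheh2, a juvenile hormone epoxide hydrolase, rose by 1.83 ± 0.03. Transporters did not follow the enzymes: 3 of 19 efflux and uptake carriers rose and 8 fell (median -0.16, and -0.01 with each array centred on its median). Of these 19 carriers 5 follow the tract. Mdr65, the P-glycoprotein of the fly blood-brain barrier, rose by 0.47 ± 0.04, and Oatp74D, the ecdysone importer, fell by 0.43 ± 0.05.

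Antioxidant genes rose in 15 of 21 cases and fell in 2 (median 0.37). Irc, an immune-regulated catalase, rose by 1.30 ± 0.04, the mitochondrial peroxiredoxin Prx3 by 1.18 ± 0.04, the glutathione peroxidase Gtpx by 0.89 ± 0.04 and sulfiredoxin Srx by 0.79 ± 0.09. Cat, the main catalase, rose by 0.78 ± 0.05. So did maf-S, the small Maf protein that pairs with the fly Nrf2 relative at antioxidant response genes, by 0.85 ± 0.03, with 9.90, 9.92, 9.87 and 9.91 in PTZ heads and 9.04, 9.09, 9.03 and 9.03 in normal food heads.

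Lipid genes moved in both directions. The acyl-CoA synthetase hll, which activates very long fatty acids, had levels of 8.15, 8.30, 8.30 and 8.23 in PTZ heads against 4.34, 4.37, 4.21 and 4.54 in normal food heads, a 14.7-fold rise, and its relative bgm rose by 1.12 ± 0.04. Dgat2, which makes triglyceride from diglyceride, rose by 1.45 ± 0.09. AkhR, the receptor through which adipokinetic hormone releases stored fat and sugar, was at 8.23, 8.20, 8.26 and 8.23 in PTZ heads and at 9.69, 9.62, 9.56 and 9.59 in normal food heads, and fell by 1.39 ± 0.05. The lipase gene mag fell by 1.38 ± 0.10. Of 16 beta-oxidation and peroxisome genes, 10 rose and 2 fell (median 0.24), with the thiolase yip2 at 0.99 ± 0.04 and Mtpbeta, a subunit of the mitochondrial trifunctional protein, at 0.54 ± 0.06.

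In sugar metabolism 17 of 27 genes rose and 5 fell (median 0.40). The gluconeogenic enzyme fbp rose by 1.64 ± 0.04, the sorbitol dehydrogenase Sodh1 by 1.43 ± 0.05 and tobi, a glucosidase gene controlled by insulin and adipokinetic hormone, by 1.28 ± 0.07. Of the hexokinases, Hex-C rose by 1.34 ± 0.05 and Hex-A fell by 1.01 ± 0.04. Pepck2, a phosphoenolpyruvate carboxykinase, had 4.29, 4.53, 4.31 and 4.52 in PTZ heads against 5.28, 5.54, 5.52 and 5.41 in normal food heads, and fell by 1.02 ± 0.08. Ilp2, the insulin-like peptide of brain neurosecretory cells, rose by 0.64 ± 0.05.

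Aminoacyl-tRNA synthetase, heat shock and proteasome genes were mostly higher. Of 19 endoplasmic reticulum (ER) chaperone and unfolded protein response genes 10 rose and 5 fell (52.6% and 26.3%, median 0.12). Of 18 cytosolic aminoacyl-tRNA synthetases 17 rose and 1 fell (median 0.47), or 12 and 0 with the 5′ minus 3′ signal as a covariate (median 0.31), with AsnRS at 1.04 ± 0.05 and AlaRS at 0.79 ± 0.08. AsnS, the asparagine synthetase that amino acid stress induces through ATF4, rose by 0.77 ± 0.08, but the stress list it belongs to was split, with 5 of 14 higher and 6 lower (7 and 3 with median-centred arrays), among the lower ones the ER stress kinase PEK at -0.46 ± 0.05. Of 13 heat shock and chaperone genes, 10 rose and 1 fell (median 0.64), or 9 and 0 with that covariate (median 0.29). Hsp26, a small heat shock protein, had 8.68, 8.86, 8.75 and 8.76 in PTZ heads and 5.88, 6.14, 6.35 and 5.71 in normal food heads, a 6.70-fold rise across a normal food group that was itself spread. Hsp68 rose by 1.39 ± 0.09, Hsp27 by 1.16 ± 0.08 and the constitutive Hsc70-4 by 0.87 ± 0.04, whereas Hsc70-3, the ER chaperone BiP, fell by 0.57 ± 0.03. Proteasome subunits rose in 26 of 40 cases and fell in 5 (median 0.79), with the core subunit Prosbeta2 at 1.41 ± 0.05.

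Mitochondrial ribosomal proteins, which translate the few proteins the organelle encodes, rose in 65 of 69 cases and fell in 0 (median 0.48), led by mRpL35 at 1.31 ± 0.05. With the 5′ minus 3′ signal as a covariate 48 of the 69 rose. Of 72 oxidative phosphorylation genes 45 rose and 15 fell (median 0.37), with ATPsyndelta, a subunit of ATP synthase, at 1.30 ± 0.05 and the complex I subunit ND-B14 at 1.08 ± 0.04. Among the falling ones was UQCR-11L, a paralogue of a complex III subunit, at -1.49 ± 0.06. Of 36 cytosolic ribosomal proteins 19 were higher and 3 lower (median 0.12), and RpL34a was at 0.97 ± 0.05. That count moved with the scaling, to 14 higher and 11 lower after a second quantile normalization (median -0.0074) and to 30 and 1 with median-centred arrays.

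Antimicrobial peptide genes were mostly higher in PTZ heads. Of 18 antimicrobial peptide genes, 14 rose and 1 fell (median 0.94). Def, which encodes defensin, had 9.51, 9.61, 9.56 and 9.55 in PTZ heads against 6.65, 6.40, 6.66 and 6.55 in normal food heads, and DptB, a diptericin, had 8.93, 8.97, 8.89 and 8.97 in PTZ heads against 6.21, 6.15, 6.25 and 6.03 in normal food heads. Groups lay far apart for both, with rises of 7.97-fold and 6.86-fold. Mtk and Drs, the peptides metchnikowin and drosomycin, rose by 1.27 ± 0.04 and 1.86 ± 0.05. Upstream of Toll, the protease psh rose by 1.09 ± 0.06 and the serpin nec by 1.39 ± 0.05, and PGRP-SB1, a peptidoglycan amidase, rose by 1.16 ± 0.04. The list of pathogen recognition and immune signalling genes they belong to had 13 of 29 higher and 7 lower, with a median of 0.03. That is 44.8% and 24.1%, against 31.5% and 29.1% of all genes. Of 21 haemocyte markers 11 rose and 3 fell (median 0.26), including the receptor genes NimC1 (1.45 ± 0.09) and NimB4 (a 2.84-fold rise) and Hml, the clotting protein hemolectin (0.97 ± 0.06).

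Transcripts of the GABA-A-type subunits, the known targets of PTZ, were at or close to their normal food levels. Rdl had 9.11, 9.22, 9.13 and 9.15 in PTZ heads against 9.14, 9.08, 9.18 and 9.08 in normal food heads, values that overlap, and its change of 0.03 had a 95% interval of -0.06 to 0.13 (adjusted p = 0.615, limma). Those values hold for the deposited scaling only, because centring each array on its median moves every change up by 0.14. Grd lay near the lower end of the scale, at 2.01 to 2.36 in PTZ heads and 2.06 to 2.33 in normal food heads, with a change of 0.05 and an interval of -0.10 to 0.21. Lcch3, at 7.84 to 7.88 in PTZ heads and 7.91 to 8.04 in normal food heads, fell by 0.11 ± 0.04, a size below the 0.14 by which the array medians differ, and it stood at 0.03 with each array centred on its median. CG8916, listed with these receptors, rose by 0.28 ± 0.05. On the transmitter side, Gad1, which makes GABA, was at -0.12 ± 0.03 (0.02 with median-centred arrays). The transporter Gat rose by 0.19 ± 0.07 and Ssadh, an enzyme of the GABA breakdown route, by 0.37 ± 0.05. GABA-B-R1, a metabotropic receptor, fell by 0.26 ± 0.09 at a level of 2.68 to 2.90 in PTZ heads and 2.94 to 3.22 in normal food heads. In all, 3 of the 11 GABA genes rose and 3 fell, 27.3% in each direction, against 31.5% and 29.1% of all genes. With median-centred arrays 5 rose and 0 fell. Single arrays decided some of these calls. Without normal food array 4 the adjusted p of Lcch3 was 0.0649, without normal food array 1 or PTZ array 3 that of Gat was 0.0669 or 0.066, and without PTZ array 1 that of GABA-B-R1 was 0.0592 (limma).

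Cholinergic and general neuronal genes were more often lower. Of 15 cholinergic genes 3 rose and 10 fell (median -0.27), and 3 of the 15 follow the tract. The nicotinic receptor subunit nAChRalpha7 had 6.30, 6.35, 6.47 and 6.33 in PTZ heads and 7.63, 7.65, 7.84 and 7.68 in normal food heads, a fall by 1.34 ± 0.05, and nAChRalpha4 and nAChRalpha5 fell by 1.39 ± 0.06 and 0.86 ± 0.04. VAChT, which loads acetylcholine into vesicles, fell by 0.66 ± 0.05. Nmdar1, an NMDA-type glutamate receptor subunit, fell by 0.74 ± 0.07, and it follows the tract over the other groups. Its list of 19 glutamate genes had 2 higher, 7 lower and 10 not called (median 0.02), and 9 higher and 4 lower with median-centred arrays. Of 35 voltage-gated channel genes, 17 fell and 5 rose (median -0.12), or 12 and 10 with median-centred arrays (median 0.02), with the calcium-activated potassium channel slo at -0.66 ± 0.05 and the sodium channel para at -0.53 ± 0.10.

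Pan-neuronal markers fell in 14 of 15 cases (median -0.63) and synaptic vesicle and active zone genes in 18 of 26 (median -0.37), against 29.1% of all genes, and 11 of those 26 follow the tract. With the 5′ minus 3′ signal as a covariate 10 and 15 fell. The ELAV-type RNA-binding protein gene fne was at 8.94, 8.97, 8.92 and 8.98 in PTZ heads and at 9.78, 9.79, 9.84 and 9.81 in normal food heads. Appl, the fly relative of the amyloid precursor protein, fell by 0.81 ± 0.03, jeb, a secreted ligand of the Alk receptor, by 1.24 ± 0.08, the synaptobrevin nSyb by 0.64 ± 0.06 and the dynamin shi by 0.78 ± 0.04. The active zone scaffold brp was at 0.73 ± 0.09 by its brightest probe set, and 1 of its 3 other probe sets was called the same way. The part of tissue makeup in these falls was not tested.

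Of 33 neuropeptide genes 11 were higher and 10 lower, 33.3% and 30.3%, near the 31.5% and 29.1% of all genes. With median-centred arrays 16 were higher and 8 lower. NPF, a feeding peptide, rose by 1.30 ± 0.06, Capa, a diuretic peptide, by 1.22 ± 0.07, and Crz, corazonin, by 0.79 ± 0.05. CCHa2, a nutrient signal to the insulin-producing cells, had 8.97, 8.88, 8.97 and 9.06 in PTZ heads against 10.07, 10.01, 10.00 and 10.03 in normal food heads, and fell by 1.06 ± 0.07. ITP, the ion transport peptide, fell by 0.80 ± 0.04. In the clock, Clk, the activator of the daily cycle, was at 6.64, 6.63, 6.68 and 6.77 in PTZ heads and 7.52, 7.60, 7.42 and 7.52 in normal food heads. While Clk fell by 0.83 ± 0.05 and its activator Pdp1 by 0.44 ± 0.06, the repressor per rose by 0.49 ± 0.07 and the photoreceptor cry by 0.63 ± 0.04. The time of day of collection is not given in the sources used here. Of the retrotransposon-derived Arc genes, which are used as activity markers, Arc2 rose by 1.19 ± 0.09 and Arc1 fell by 0.88 ± 0.04, though another probe set of Arc1 was not called the same way.

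Large falls beyond the tract included antennal genes. Os-C, an antennal secreted protein, had 2.49, 2.75, 2.73 and 2.76 in PTZ heads against 5.91, 5.77, 6.19 and 5.82 in normal food heads. Obp83b, an odorant-binding protein of the antenna, had 3.34, 3.51, 3.48 and 3.48 in PTZ heads against 6.10, 6.06, 5.97 and 6.25 in normal food heads. Groups lie apart for both, but the PTZ levels are below the array medians of 3.71 to 3.72 and were not tested against background, so no fold is given. Obp28a, another antennal binding protein, rose by 2.17 ± 0.07 and Obp56h by 1.58 ± 0.04. Of 48 odorant-binding protein genes, which are not all antennal and of which 9 follow the tract, 22 rose and 10 fell. Obp99b, which fat body cells make in a sex-biased way, fell by 1.37 ± 0.04 at a high level, 10.21, 10.28, 10.15 and 10.19 in PTZ heads against 11.59, 11.57, 11.57 and 11.58 in normal food heads. The storage protein gene Lsp2 rose by 1.51 ± 0.04 and fit, a satiety peptide gene of the fat body, by 0.90 ± 0.04.

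Other leading falls were of genes with little or no annotation in the sources used here. The changes of CG16826 and whe were -3.05 ± 0.13 and -3.02 ± 0.07, and CG9377, CG5968 and CG8654 were at -2.72 ± 0.09, -2.71 ± 0.08 and -1.87 ± 0.04. On the rising side CG11425, CG3699, CG33307 and CG9360 belonged to the 15 greatest changes, at 2.74 ± 0.07, 2.61 ± 0.05, 2.61 ± 0.06 and 2.50 ± 0.05. Ag5r, an antigen-5-related secreted protein, fell by 2.42 ± 0.11, the cuticle protein gene Cpr49Ae by 1.01 ± 0.04 and Cyp4g1, which makes cuticular hydrocarbons in oenocytes, by 1.86 ± 0.11. Among the 15 greatest falls was also janB, a testis-expressed gene, at -2.48 ± 0.13, so the tract filter left some genes of that kind. Gut enzymes fell in 20 of 38 cases (52.6%) and rose in 7 (18.4%), against 29.1% and 31.5% of all genes. Without the 40% dimmest probe sets 8 of 18 were lower and 6 higher. The summed linear level of the list was 3677 to 3869 on PTZ arrays against 2120 to 2168 on normal food arrays. Of the 38 gut genes 13 follow the tract. Mal-A1, a maltase and one of these 13, was at -2.92 ± 0.08.

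Because normal food stands above every other group in tract genes, a further comparison took the 7 compounds given without PTZ as its reference, by their mean, and there 25.3% of genes were called higher and 20.5% lower. That reference keeps part of the tract difference: of the 81 tract genes 35 were lower there and 6 higher, with a median of -0.14. Median tract levels were 3.73 with moxifloxacin, 3.40 with levetiracetam and 3.19 with gemfibrozil, against 2.90 with PTZ. With glucosamine, mannitol, olmesartan and quinapril they were 2.68 to 2.82. The PTZ arrays are the same in both comparisons, so the values are given side by side. Cyp6a8 was at 2.84, GstD2 at 2.89, hll at 3.33 and Cyp6a2 at 2.20 there, beside 2.87, 2.93, 3.88 and 2.20 against normal food. Other detoxification genes were smaller there, with Cyp6d5 at 1.03, GstD1 at 0.69 and GstE6 at 0.45, and the list medians were 0.16 for P450s and 0.23 for glutathione S-transferases. One-carbon and purine genes were smaller as well, with Gnmt at 3.03, Shmt at 1.36, Gart at 1.46 and Prat2 at 0.69, and list medians of 0.38 for the S-adenosylmethionine cycle and 0.45 for the glycine and folate list. Medians were 0.32 for proteasome subunits, 0.19 for mitochondrial ribosomal proteins and 0.39 for antimicrobial peptides. Os-C (-2.83), Obp83b (-2.40), AkhR (-1.27), CCHa2 (-0.98), Clk (-0.67), fne (-0.87), Appl (-0.80) and slo (-0.66) were lower there too. The neuronal lists as a whole moved less there. Pan-neuronal markers had a median of -0.16 beside -0.63 against normal food, with 9 of 15 lower and 1 higher. Synaptic genes had -0.11 beside -0.37 (13 of 26 lower, 2 higher), and cholinergic genes -0.08 beside -0.27 (6 of 15 lower, 1 higher). Genes that kept their sign there but were not called were nAChRalpha4 (-0.10), jeb (-0.07), PEK (-0.06), Capa (0.04), Cat (0.08), Mdr65 (0.07), brp (0.02) and Ssadh (0.0066). Genes that turned include Cyp4g1 (1.46), whe (0.48), mag (0.66), fit (-0.57), Hml (-0.38) and Ilp2 (-0.32), and the median of the beta-oxidation list was -0.14.

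**Figure D2:**
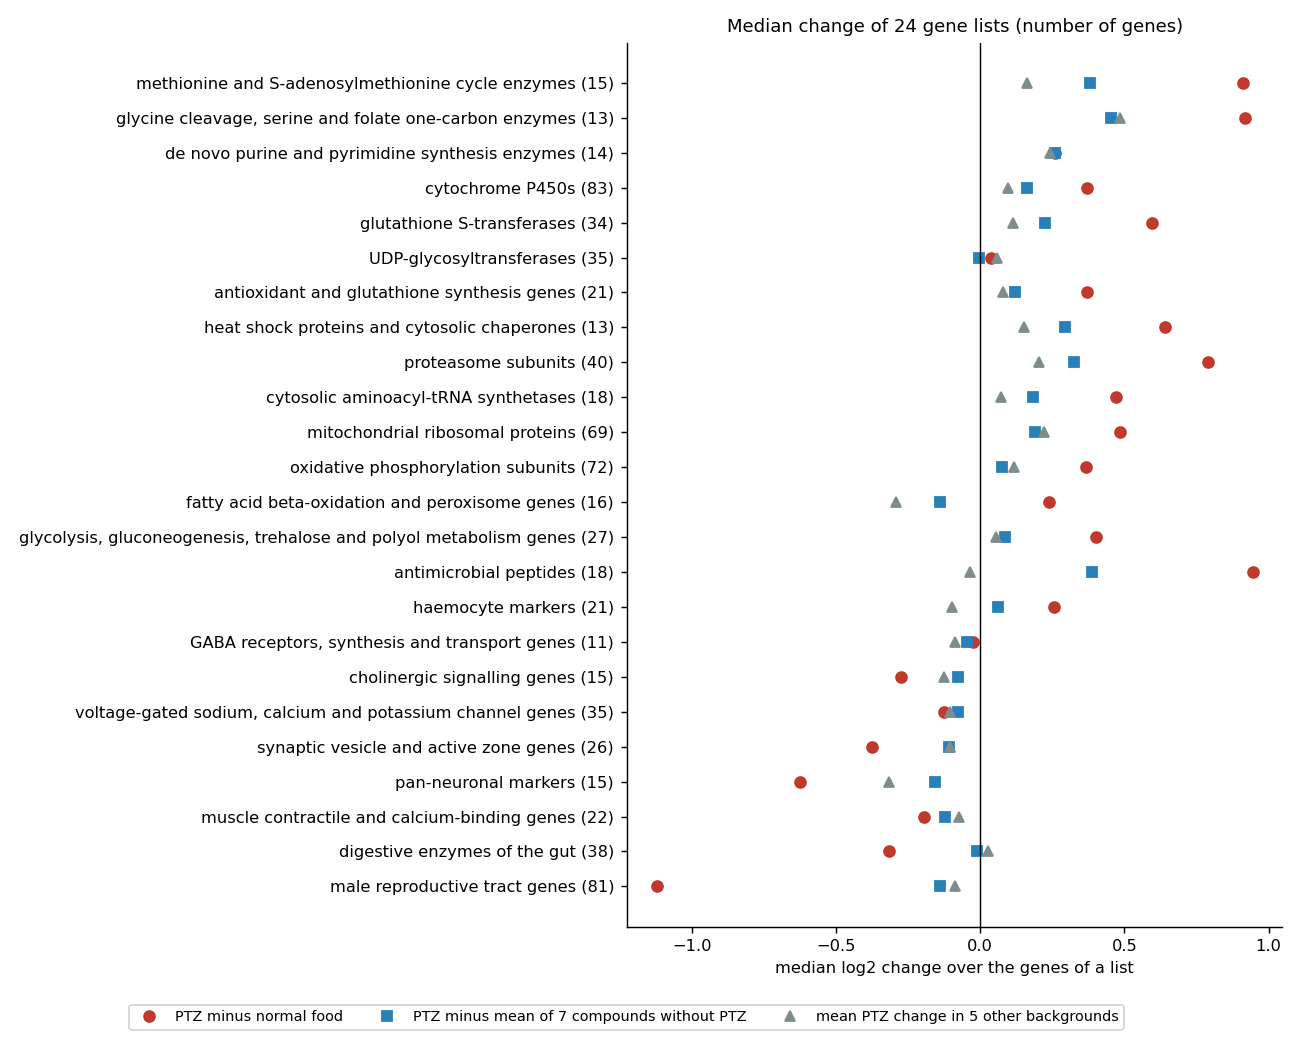
Median log2 change of 24 gene lists for PTZ minus normal food (circles), PTZ minus the mean of 7 PTZ-free compounds (squares) and the mean PTZ change in 5 other food backgrounds (triangles), with the number of genes in brackets. The glycine and folate list stands at 0.92, 0.45 and 0.49, and antimicrobial peptides at 0.94, 0.39 and -0.04.

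The change on normal food was also tested against the mean PTZ change in the 5 other backgrounds, which share no arrays with it. The levetiracetam background shares part of the tract difference, with a median tract level of 3.40 without PTZ and 2.65 with it. For glucosamine, mannitol, olmesartan and quinapril this level was 2.68 to 2.82 without PTZ and 2.76 to 2.91 with it. In that test of the difference 27.6% of genes were higher and 22.9% lower on normal food, 7672 probe sets in all. Of the 355 genes that rose at least 2-fold beyond the tract, 178 (50.1%) had the same sign in all 5 backgrounds, as had 18.0% of all genes called higher and 5.8% of genes not called. Of the 89 that fell as much, 33 (37.1%) had it, against 16.4% of all genes called lower. The difference in size was called for 348 of the 355 and 86 of the 89. These genes were chosen for a large change on normal food, and that same change enters the difference. The choice itself favours a called difference, so these counts cannot show how often sizes differ between backgrounds.

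Changes in single backgrounds are differences of means and carry no call of their own. Gnmt was higher with PTZ in each of the 5 backgrounds, by 4.08 with levetiracetam, 2.43 with glucosamine, 2.50 with mannitol, 3.28 with olmesartan and 2.60 with quinapril. Its change on normal food was 0.94 ± 0.07 above their mean (adjusted p = 2.62e-17, limma). CG3999, Gart, Shmt and Prat2 were also higher in all 5, and their change on normal food exceeded the mean by 1.47 ± 0.08, 0.84 ± 0.05, 0.76 ± 0.05 and 1.08 ± 0.05. Adsl was an exception in this pathway, with a difference of -0.08 and a 95% interval of -0.18 to 0.03 (adjusted p = 0.255, limma). In the drug-metabolising group the differences were 0.80 ± 0.04 for GstE6, 0.76 ± 0.04 for Cyp6w1, 0.74 ± 0.05 for GstD1, 0.65 ± 0.04 for Cyp6d5, 0.42 ± 0.07 for GstD2, 0.40 ± 0.05 for Cyp6a8 and 0.21 ± 0.06 for Cyp6a2. For Cyp12d1-d the change on normal food was below the mean of the other backgrounds (-0.37 ± 0.12). For hll the difference was 0.63 ± 0.08. List medians of proteasome subunits, aminoacyl-tRNA synthetases and heat shock genes were 0.76, 0.54 and 0.62 with levetiracetam. With glucosamine they were 0.28, 0.05 and 0.07, and with mannitol -0.03, -0.08 and -0.07. With olmesartan they were 0.05, -0.11 and 0.12, and with quinapril 0.05, -0.01 and -0.02.

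**Figure D3:**
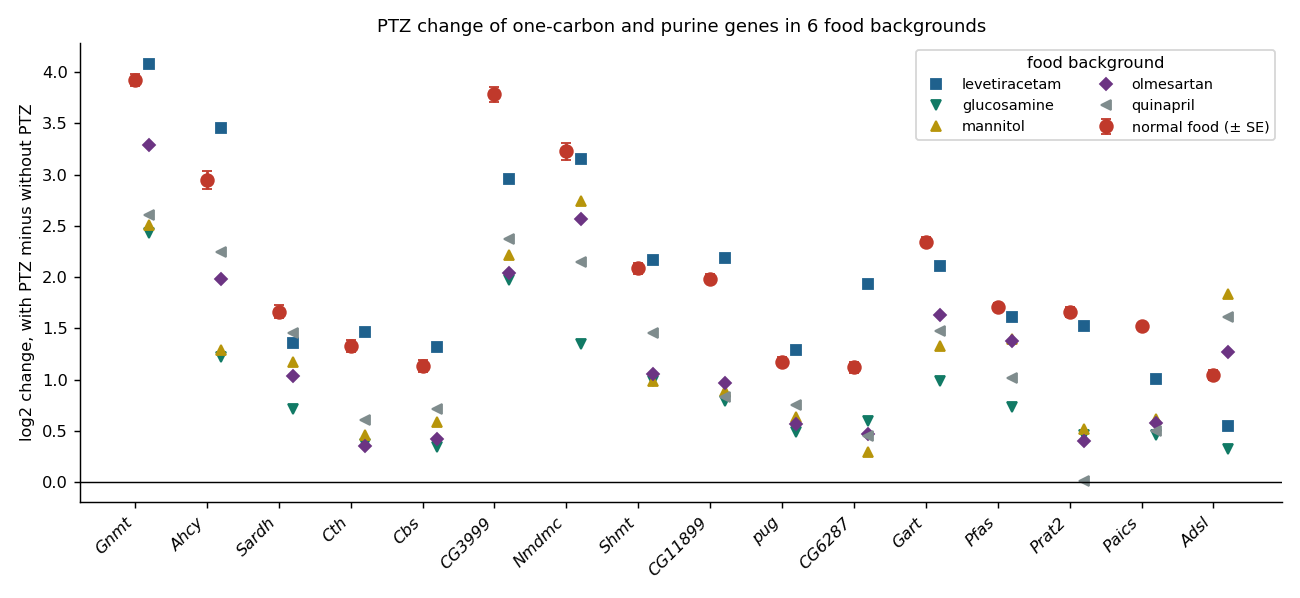
Log2 change with PTZ for 16 one-carbon and purine genes on normal food (circles, ± SE) and in 5 other food backgrounds. All lie above 0 in every background, from 0.01 for Prat2 with quinapril to 4.08 for Gnmt with levetiracetam.

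For several falls the mean over the other backgrounds was near the change on normal food. CG9377 fell by 2.72 on normal food and had a mean change of -2.73 in the others, a difference of 0.01 with an interval of -0.20 to 0.22. That mean covers changes of -2.66 with levetiracetam, -0.19 with glucosamine, -3.73 with mannitol, -3.55 with olmesartan and -3.50 with quinapril. CCHa2 differed by -0.02 (-0.18 to 0.14), Clk by -0.10 (-0.21 to 0.02), slo by 0.07 (-0.04 to 0.19) and Pdp1 by 0.06 (-0.07 to 0.19), none of them called. Single backgrounds ranged from -1.86 to -0.47 for CCHa2, from -1.03 to -0.60 for Clk, from -0.99 to -0.37 for slo and from -1.07 to -0.15 for Pdp1. The difference was called but small for Appl (-0.10 ± 0.03), CG8654 (-0.17 ± 0.04) and AkhR (-0.23 ± 0.05), all lower in 5 of 5 backgrounds. Pepck2 and Obp99b had mean changes of -1.94 and -2.75 in the other backgrounds, further below 0 than on normal food. Obp83b and Os-C were lower in 5 of 5, by means of 1.90 and 1.99, but fell more on normal food. The differences of -0.74 ± 0.10 and -1.25 ± 0.11 were called. Single backgrounds ranged from -3.31 to -0.94 for Obp83b and from -3.73 to -0.44 for Os-C.

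For other genes the change on normal food was opposite to the mean of the other backgrounds. DptB rose by 2.78 on normal food but had changes of -0.58, -2.06, 1.18, -2.82 and -1.24 with levetiracetam, glucosamine, mannitol, olmesartan and quinapril, a difference of 3.88 ± 0.07 (adjusted p = 3.42e-41, limma). Mtk (2.40 ± 0.05), PGRP-SB1 (1.70 ± 0.05), NimC1 (1.99 ± 0.10) and Hml (1.59 ± 0.07) differed likewise, although Hml had the sign of normal food in 2 of 5 backgrounds. The median of the antimicrobial list was -0.04 over the other backgrounds. Obp28a, tobi, Hsp68, yip2 and fit rose on normal food with mean changes below 0 elsewhere. Conversely whe, CG16826, mag and Ag5r fell on normal food and had mean changes of 1.11, 0.99, 0.90 and 0.65 in the other backgrounds. These means hide differences between backgrounds. With levetiracetam and olmesartan, whe (-0.52 and -1.05), CG16826 (-0.54 and -0.24) and Ag5r (-0.34 and -0.13) were below 0 too. With mannitol the same genes were at 3.73, 3.41 and 2.26. Rdl, not called on normal food, had a mean change of -0.40 in the others, and the difference of 0.43 ± 0.05 was called.

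**Figure D4:**
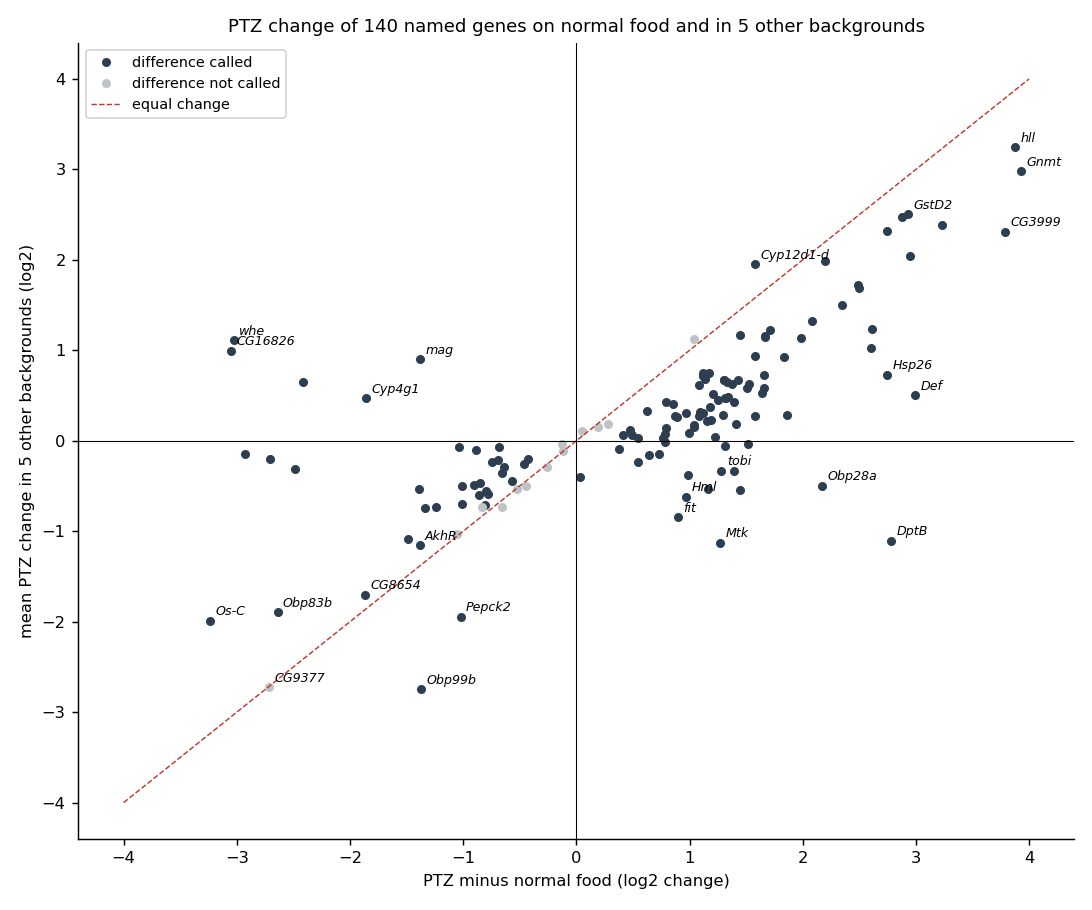
PTZ change on normal food (horizontal, log2) against the mean PTZ change in 5 other backgrounds (vertical, log2) for the named genes, dark where the difference between them was called. CG9377, at -2.72 and -2.73, lies on the dashed line of equal change, although its single backgrounds range from -3.73 to -0.19, and DptB, at 2.78 and -1.10, lies far from it.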

How the data were processed

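RNA of whole heads (250 ng) was labelled with a 3′ IVT kit for Affymetrix arrays (Drosophila Genome 2.0), as the protocols describe. The authors deposited log2 values. RMA and limma are named in the submitters' processing notes, without settings. RMA corrects background, quantile normalizes and summarizes probes, so a change shared by most transcripts is removed and differences of dim probe sets are compressed. Of 18952 probe sets, 183 controls were left out and 18769 tested; 13646 have 1 gene symbol in the platform annotation, 402 several and 4721 none, and 13543 were matched to RefSeq for current symbols. The table holds 0 columns of other samples.

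One limma fit (version 3.58.1, R 4.3.3) covered the 58 arrays with a mean per group, eBayes (43 residual degrees of freedom, 3.88 from the prior) and Benjamini-Hochberg adjustment over all probe sets of each comparison. Precision is limited by the number of arrays, and the median SD within a group was 0.0942 for PTZ and 0.111 for normal food. The brightest probe set stood for each of 11981 genes. Named genes are the 15 greatest rises and falls that do not follow the tract and whose arrays do not overlap, up to 6 called members of each of 48 gene lists by size of change, and Rdl, Grd and Lcch3; a part of them is named. The comparison, the gene lists and the rule were chosen with earlier results of these data known, and lists are described by counts and medians only. Replicate numbers did not pair the samples: deviations of same-numbered PTZ and normal food arrays correlated at 0.023, 0.022, -0.008 and 0.022. The code was tested on simulated data. Alternatives were a robust prior with a variance trend, a second quantile normalization, median-centred arrays, leaving out the 40% dimmest probe sets, the replicate number as a block, the 5′ minus 3′ signal as a covariate, only the 8 arrays, each array left out, another reference, and, for lists, averaging the probe sets of a gene. Leaving out probe sets that follow the tract was chosen after seeing the data. Python 3.11.15 and matplotlib 3.10.9 drew the figures. Sequences and coordinates are not used here.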

Additional observations from a re-analysis of the deposited data

Results flagged for a closer look

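The PTZ change on normal food differed from the mean PTZ change in the 5 other backgrounds for 7672 probe sets by the test of that difference. Of 20 genes under the naming rule whose mean change in the other backgrounds had the opposite sign, with at most 1 background of 5 on the side of normal food, 13 are described in the report. Among these the difference was 3.88 for DptB, 2.67 for Obp28a, 2.40 for Mtk, 1.99 for NimC1, 1.74 for fit, 1.73 for Hsp68, 1.70 for PGRP-SB1, 1.61 for tobi and 1.36 for yip2. It was 0.88 for brp, 0.77 for Mtpbeta and 0.46 for Ssadh, and for the lipase gene mag it was -2.28. For Hsp68, yip2, Mtpbeta, tobi, brp and Ssadh the background on the side of normal food was levetiracetam, for DptB and Mtk mannitol, for NimC1 glucosamine and for Obp28a quinapril, while mag, PGRP-SB1 and fit had none. The median tract level was 3.40 with levetiracetam alone and 2.65 with levetiracetam and PTZ, and its part in these changes was not tested.

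In 14 of 286 groups of 4 arrays tested 1 array stood apart from the other 3 by Dixon's criterion, and chance flags about 1 group in 20. In PTZ heads these were array 2 for Gart at 9.69 (others 9.63 to 9.64) and Cyp6a2 at 11.15 (11.0 to 11.02), array 4 for Lcch3 at 7.88 (7.84 to 7.85), and array 1 for Hml at 5.57 (5.71 to 5.73), GABA-B-R1 at 2.68 (2.87 to 2.90), Nmdar1 at 6.52 (6.42 to 6.43) and Os-C at 2.49 (2.72 to 2.76). In normal food heads they were array 2 for AsnS at 4.78 (5.14 to 5.21) and foxo at 7.16 (7.32 to 7.35), array 3 for Oatp74D at 7.58 (7.42 to 7.44) and ITP at 10.63 (10.56 to 10.57), and array 4 for Cyp6w1 at 9.42 (9.62 to 9.65), slo at 7.15 (7.40 to 7.43) and CG11425 at 4.38 (4.13 to 4.18).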

How the results depend on the processing

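With each array centred on its median, 7134 probe sets were called higher and 3122 lower, against 4493 and 4949 as deposited, so 69.6% of the calls were higher in place of 47.6%; the construction moves every change up by the difference of the array medians. Under the other alternatives the counts stayed within 1.5 times. With the replicate block they were 4492 higher and 4941 lower, and it changed no call of a named gene; with the 5′ minus 3′ covariate they were 3273 and 3862, against the mean of the 7 compounds 3592 and 3717. Without probe sets that follow the tract, an alternative chosen after seeing the data that takes out mainly falls, they were 4440 and 3397. Leaving out 1 array gave 4305 to 4369 higher, 4697 to 4813 lower and 7150 to 7445 called for the difference from the other backgrounds (7672 with all arrays).

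Of the 138 named genes that were called, 8 kept their sign but lost their call against the mean of the 7 compounds. In 17 the sign changed, whether called there or not, and these are said to have turned: Cyp4g1 1.46, mag 0.66, whe 0.48, Ag5r 0.31, CG16826 0.14, Hex-A 0.10, Gad1 0.046, shi 0.033, Arc1 0.024, fit -0.57, Hml -0.38, Ilp2 -0.32, PGRP-SB1 -0.18, NPF -0.12, Mtpbeta -0.12, yip2 -0.091 and Crz -0.014. Among these, CG16826 (adjusted p = 0.269, limma) and Gad1 (adjusted p = 0.146, limma) were not called there. Of 48 list medians 13 changed sign there: those of monoamine genes (0.10), activity markers (0.20), hormone genes (0.0061), phototransduction genes (-0.034), insulin pathway genes (-0.015) beta-oxidation genes (-0.14), sex-biased fat body genes (-0.21), autophagy genes (0.077), glutamate genes (-0.050), immune signalling genes (-0.022), cuticle genes (-0.023), chemosensory receptors (-0.0067) and UDP-glycosyltransferases (-0.0026). With median-centred arrays Lcch3 (0.028) and Gad1 (0.018) turned. For these turns the cause was not tested. Under the replicate block and the variance trend the 138 calls stayed, and over the 8 single-array omissions 4 calls of Lcch3, Gat and GABA-B-R1 were lost.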

Other observations

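Other tissues of the head gave mixed pictures. Muscle contractile and calcium-binding genes were lower in 12 of 22 cases and higher in 6, and 7 of the 22 follow the tract; TpnC4, a troponin C, which is one of these 7, fell by 1.04 ± 0.07. Of 16 glial markers 8 rose and 4 fell, among them the midline glia gene wrapper (0.54 ± 0.05) and the blood-brain barrier receptor moody (0.41 ± 0.04). Phototransduction and photoreceptor genes rose in 12 of 24 cases and fell in 6, and inaD, the scaffold of the phototransduction complex, rose by 1.04 ± 0.05. Of 105 cuticle protein genes 20 rose and 10 fell, 19.0% and 9.5% against the 31.5% and 29.1% of all genes, with Cpr67B at 1.66 ± 0.06. Olfactory, gustatory and ionotropic receptor genes rose in 15 and fell in 14 of 166 cases (9.0% and 8.4%), below the shares of all genes. With median-centred arrays these were 55 and 1, and 44 and 3 for cuticle genes; phototransduction genes were 9 and 9 after a second quantile normalization, and glial markers 4 and 1 with the 5′ minus 3′ covariate.

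Of 23 autophagy and lysosome genes 9 rose and 9 fell, 39.1% each way against 31.5% and 29.1% of all genes. With median-centred arrays 12 rose and 5 fell, and 5 of the 23 follow the tract. The gene cathD, for the lysosomal protease cathepsin D, rose by 0.999 ± 0.04. Ribosome biogenesis genes rose in 9 of 20 cases and fell in 3 (4 and 3 with the 5′ minus 3′ covariate), with the nucleolar GTPase Non1 at 1.08 ± 0.05. In insulin signalling 7 of 16 genes rose and 6 fell (43.8% and 37.5%), and foxo, its transcription factor, fell by 0.68 ± 0.06. Of 26 juvenile hormone and ecdysone genes 8 rose and 10 fell, 30.8% and 38.5% (11 and 6 with median-centred arrays). Eip93F, an ecdysone-induced transcription factor, fell by 0.91 ± 0.08.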
